A study of Mus musculus with 6 samples.

Results

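The 9 genes described here encode transcription factors of the osteoblast, the cell that makes bone: Runx2, Sp7, Dlx3, Dlx5, Dlx6, Atf4, Msx1, Msx2 and Alx4. They were taken by name from a table of 43346 genes, where each name matched a single gene, and 8 of the 9 had enough reads to be tested. The libraries are RNA-seq of C57BL/6 mice, a common inbred strain, aged 4 months. In the radiated group, 24 Gy of X-rays were delivered at 6.6 Gy per minute to 5 mm of the distal metaphysis of the right femur, the marrow-rich end of the shaft near the knee. The non-radiated group is the left femur, so its tissue also comes from mice that received radiation elsewhere in the body. Each group has 3 libraries, made on day 21, ahead of bone loss that the submitters saw at day 28, and the question is which transcripts differed before that loss. The bone was homogenized whole after muscle was cut away, so marrow, cartilage and vessels are in each library beside bone cells. The labels do not say whether replicates are separate animals, so p-values measure the spread between these libraries.

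Runx2 is a runt-domain factor that binds DNA together with its partner Cbfb, and mice without it form no osteoblasts. Sp7, also called osterix, is a zinc finger factor needed after Runx2 for a precursor to become an osteoblast. The Dlx and Msx genes encode homeodomain factors that respond to bone morphogenetic proteins (BMPs). Dlx5 can raise Runx2 and Sp7 expression, and Msx2 can oppose Dlx5 at shared sites. Atf4 is a basic leucine zipper factor of the cellular stress response that also acts with Runx2 at the osteocalcin gene, and its protein level is set largely at translation. Alx4 is a paired-type homeodomain factor of skull and limb patterning.

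The RUNX recognition site is shown because Runx2 is the member whose transcript differed beyond the spread between replicates, and several of its textbook targets are measured below. The letters TGTGGT, or ACCACA on the opposite strand, were searched on both strands in the 250 bases before each RefSeq transcript start (build GRCm38.p6), and 14.0% of 32851 such windows hold them. Each run is the gene's own strand, 5′ to 3′, and capitals mark the site:
Runx2 (chr17:44814690-44814719, minus strand): gtgaggtcacaaACCACAtgattctgtctc
Bglap (chr3:88384581-88384610, minus strand): ccgcaatcacctACCACAgcatcctttggg
Mmp13 (chr9:7272384-7272413, plus strand): attctgccacaaACCACActtaggaagaaa
Spp1 (chr5:104434971-104435000, plus strand): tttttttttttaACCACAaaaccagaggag
Dmp1 (chr5:104202441-104202470, plus strand): agtcatttgagaACCACAagagctttttag
The first capital lies 80 bases before the start in Runx2, 132 in Bglap, 118 in Mmp13, 128 in Spp1 and 164 in Dmp1. In GENCODE M21, Runx2 starts farther upstream than in RefSeq, so the 30 bases shown for Runx2 lie inside an annotated Runx2 exon there. Of the 12 osteoblast effector genes listed below, 10 had at least 1 window, 15 windows in all. The site was held by 4 of these genes, in 1 window each, and a second window of Dmp1 and of Spp1 did not hold it. The 14.0% is a share of windows, so it does not compare with a share of genes. RefSeq windows were found for 4 of the 9 factors, and of these only that of Runx2 held it. A match of letters is a description and not a measurement of binding.

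Total gene counts ran from 34034251 to 48708383 per library. The row AY036118 took 32.9% of the counts of non-radiated library 2 and between 0.321% and 5.61% of the others, so that library has less depth for the genes described here. Values are therefore given as CPM, counts brought to a common library size, after scaling by the trimmed mean of M-values (TMM), which sets libraries level on the bulk of genes. The osteoblast identity of part of the tissue is visible in Col1a1, at 2984 to 6185 CPM in the 6 libraries, and in Ibsp, Bglap and Alpl, at 215 to 380, 19.3 to 51.3 and 30.3 to 54.3 CPM. Skeletal muscle transcripts differed between libraries: 14 muscle genes summed to between 182 and 374 CPM in the non-radiated libraries, and to 828, 2727 and 215 CPM in radiated libraries 1, 2 and 3. Keratinocyte markers summed to between 0.393 and 0.851 CPM, with Krt14 and Krt1 at 0 in all 6 libraries.

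Across the factors, Runx2 fell in radiated femur to 0.721 of its non-radiated level, and none of the other 7 tested members passed the test on group alone. With the replicate number as a block, Sp7 also passed (log2 fold change -0.49, edgeR adjusted p 0.0117). The median log2 fold change of the 8 tested members was -0.11, with 7 below 0, against a median of 0.00 over all 18757 genes. A gene was called where edgeR's quasi-likelihood test gave a Benjamini-Hochberg adjusted p under 0.05, which 1 of 8 members met, and 2 of 8 with the replicate number as a block. The background was 7.80% of all tested genes (3.24% lower and 4.56% higher in radiated femur), and 8.90% with the block. With library totals alone the calls over all genes were 146 lower and 854 higher, against 607 and 856 with TMM. An unadjusted p under 0.05 was met by 2 of 8 members, against 21.5% of all tested genes. With 8 genes, the member count of 1 on group alone is close to the background share. The count of 2 with the block is above its 8.90%, but 8 genes are too few to read more into either count.

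**Figure D1:**
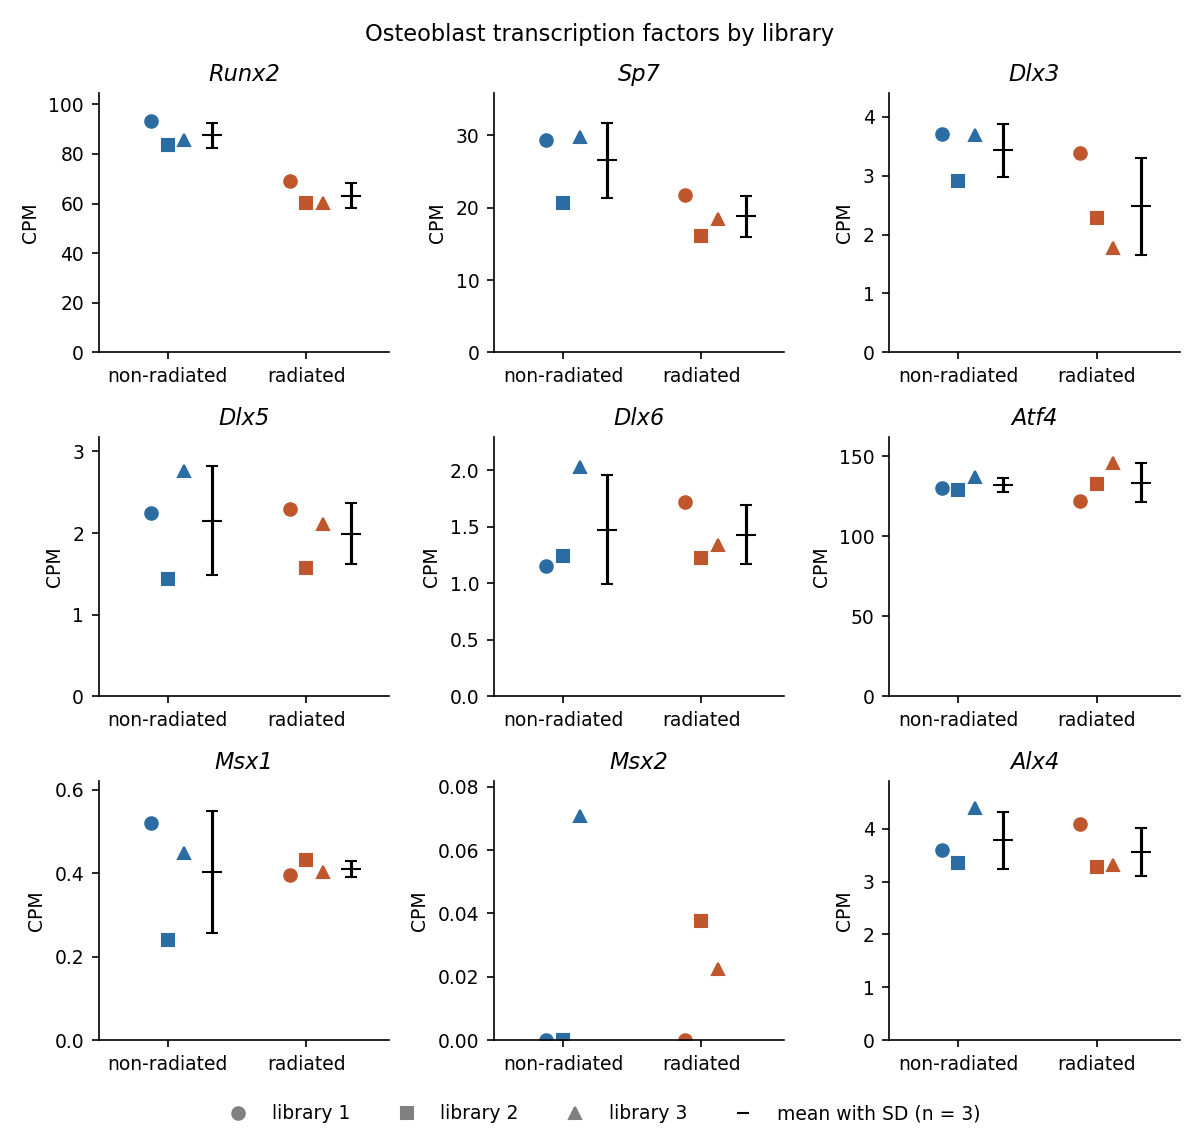
Level of each factor in CPM (counts brought to a common library size, linear axis from 0) in the 3 non-radiated (blue) and 3 radiated (orange) libraries, with marker shapes for library numbers and black bars for the mean and SD (not drawn for Msx2, which has 0 to 3 counts). In Runx2 every radiated library lies below every non-radiated one, and in the other 8 panels the groups overlap.

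Runx2 (ENSMUSG00000039153, chromosome 17, 44495987 to 44814797, minus strand, 8837 exon bases) had 3393, 2094 and 3632 counts in the non-radiated libraries, numbered 1 to 3, and 2608, 3209 and 2691 counts in the radiated ones. On the CPM scale its non-radiated levels were 93.1, 83.6 and 85.7, and its radiated levels 68.9, 60.1 and 60.3. The lowest non-radiated library was above the highest radiated one, a separation of groups found for 25.9% of all tested genes. The log2 fold change was -0.47 with an SE of 0.07 and a 95% interval of -0.63 to -0.31 (edgeR adjusted p 0.00396). The level fell by 27.9%. Within the numbered pairs the difference was -0.43, -0.48 and -0.51 on the log2 scale, so it was of like size in all 3.

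The call of Runx2 was kept in 13 of 14 alternative settings. It was lost when libraries were scaled by their totals alone (log2 fold change -0.29, edgeR adjusted p 0.640), a scaling that lets AY036118 enter and moves the median of all tested genes to 0.19. Leaving out any 1 library gave -0.54 to -0.43. Runx2 overlaps 5 other genes in the table. Only Runx2os1, an antisense gene with 9 to 25 counts in a library, shares exon bases with it, 519 of them or 5.87% of the Runx2 exons. Supt3, on the opposite strand and overlapping part of its span, shares none and was at 0.04 on the log2 fold change scale (edgeR adjusted p 0.851). Whether reads were counted by strand is not given in the sources used here.

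Sp7 (ENSMUSG00000060284, chromosome 15, 102356609 to 102366325, minus strand) had 1067, 516 and 1261 counts in the non-radiated and 824, 860 and 824 in the radiated libraries. The levels were 29.3, 20.6 and 29.8 CPM in non-radiated and 21.8, 16.1 and 18.5 CPM in radiated libraries. Non-radiated library 2 was below radiated library 1, so the groups overlap by that pair of values. The log2 fold change was -0.51 (SE 0.15, 95% interval -0.85 to -0.16), with an edgeR adjusted p of 0.0814, which misses the threshold. The fold is as large as that of Runx2, and the spread among non-radiated libraries is wider.

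With the replicate number as a block, Sp7 was called at -0.49 (edgeR adjusted p 0.0117). Its differences within the numbered pairs were -0.43, -0.35 and -0.69 on the log2 scale. Without non-radiated library 2 it was -0.67 and called (edgeR adjusted p 0.0200). The plot of settings shows that Sp7 was called in 4 of 15 settings, and its adjusted p ran from 0.00321 to 0.572. With the muscle sum as a covariate the value was -0.35 (edgeR adjusted p 0.366).

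**Figure D2:**
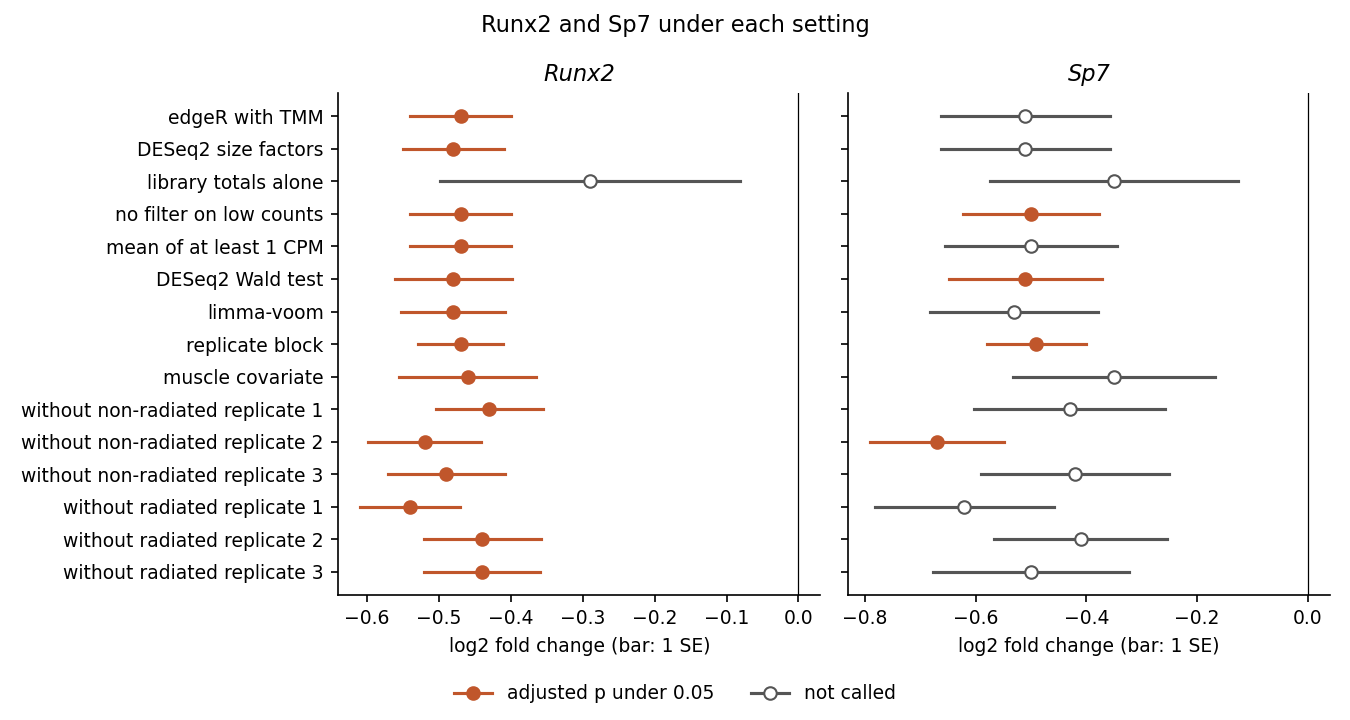
Log2 fold change (radiated minus non-radiated, bars of 1 SE) of Runx2 and Sp7 in the edgeR fit with TMM and under 14 alternatives, filled orange where the adjusted p is under 0.05. Runx2 is called in 14 of the 15 settings and Sp7 in 4, and all values of both genes are below 0.

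Of the Dlx genes, Dlx3 (ENSMUSG00000001510, chromosome 11, 95120119 to 95125296), a factor of bone and skin differentiation, was at 3.70, 2.91 and 3.68 CPM in non-radiated and at 3.38, 2.28 and 1.77 CPM in radiated libraries. Radiated library 1 lay among the non-radiated values and radiated library 3 was the lowest of all. Its log2 fold change of -0.48 (95% interval -1.01 to 0.04, edgeR adjusted p 0.272) is of the size of Runx2, but its interval includes 0, and in none of 15 settings was it called. Leaving out radiated library 3 gave -0.29, and leaving out radiated library 1 gave -0.76 (edgeR adjusted p 0.0853).

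Dlx5 (chromosome 6, 6877805 to 6882085) and Dlx6 (6863334 to 6868568) form a close pair on opposite strands. Dlx5 (ENSMUSG00000029755) was at 2.25, 1.44 and 2.76 CPM in non-radiated and at 2.30, 1.57 and 2.11 CPM in radiated libraries. The radiated values fall inside the non-radiated range (log2 fold change -0.13, 95% interval -0.70 to 0.43, edgeR adjusted p 0.816). Dlx6 (ENSMUSG00000029754) was at 1.15, 1.24 and 2.03 CPM in non-radiated and at 1.72, 1.22 and 1.34 CPM in radiated libraries, with 31 to 86 counts in a library. Its highest value was in non-radiated library 3 (log2 fold change -0.07, 95% interval -0.65 to 0.51, edgeR adjusted p 0.913). Both genes changed sign in 4 of 14 alternatives, and neither was called in any setting. These intervals allow a change as large as that of Runx2 in either gene. The antisense transcript Dlx6os1 (ENSMUSG00000090063), which overlaps the span of Dlx6 but not its exons, had 30 to 110 counts and was at -0.02 on the log2 fold change scale (edgeR adjusted p 0.972).

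Atf4 (ENSMUSG00000042406, chromosome 15, 80255184 to 80257540) was the most abundant member per exon length. It was at 130, 129 and 137 CPM in non-radiated and at 122, 133 and 146 CPM in radiated libraries. The radiated libraries held both the lowest and the highest value of the 6. The log2 fold change was 0.02 with a 95% interval of -0.13 to 0.18 (edgeR adjusted p 0.894), which bounds the level in radiated femur between 0.911 and 1.13 of the non-radiated level. This interval does not reach the fold estimated for Runx2. These are transcript levels and do not measure Atf4 protein.

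Alx4 (ENSMUSG00000040310, chromosome 2, 93642384 to 93681339) was at 3.59, 3.35 and 4.39 CPM in non-radiated and at 4.09, 3.28 and 3.32 CPM in radiated libraries, with overlapping groups (log2 fold change -0.09, 95% interval -0.45 to 0.27, edgeR adjusted p 0.798). Msx1 (ENSMUSG00000048450, chromosome 5, 37820485 to 37824583) had 19, 6 and 19 counts in non-radiated and 15, 23 and 18 counts in radiated libraries. At this depth its 95% interval ran from -0.76 to 0.73 on the log2 scale (edgeR adjusted p 0.986), so a change of the size of that in Runx2 was not detectable. Msx2 (ENSMUSG00000021469, chromosome 13, 53466884 to 53473074) had 0, 0 and 3 counts in non-radiated and 0, 2 and 1 counts in radiated libraries, and was too low to test. The gene next to Msx1, Cytl1, which encodes a secreted protein of cartilage and lies 80664 bases away, fell by 1.22 on the log2 scale (edgeR adjusted p 0.0207). A count of 0 allows up to 3 counts, which is 0.120 CPM in non-radiated library 2 and less in the other libraries, and it covers counting error only.

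On a scale of CPM per kilobase of exon, which allows genes to be compared, the members spanned a wide range of levels. The deposited lengths used are shorter than the GENCODE M21 exon bases for Sp7 (2906 against 3398), Dlx5 (1423 against 2263) and Atf4 (1724 against 2358). Levels of these genes beside others therefore depend on the annotation. The mean over 6 libraries was 77.0 for Atf4, 8.52 for Runx2, 7.80 for Sp7, 1.46 for Dlx5, 1.13 for Dlx3, 0.610 for Dlx6, 0.520 for Alx4, 0.131 for Msx1 and 0.00664 for Msx2. Atf4 was above 97.3% of tested genes and Runx2 above 63.8%, while Dlx5, Dlx3, Dlx6 and Alx4 were above 26.7%, 23.3%, 16.0% and 14.4%. Neighbours in this order were not all apart. In non-radiated libraries Runx2 was at 9.90 ± 0.562 and Sp7 at 9.13 ± 1.77 CPM per kilobase (mean ± SD, n = 3 each), and they were at 7.14 ± 0.568 and 6.46 ± 0.979 in the radiated ones. Dlx5 and Dlx3, at 1.51 ± 0.469 and 1.32 ± 0.172 in non-radiated libraries, and Dlx6 and Alx4, at 0.620 ± 0.204 and 0.535 ± 0.0768, also lay within their spread.

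Ratios of genes within a library do not depend on how libraries are scaled, and the 5 computed were chosen after the values were seen. Per exon length, Runx2 was at 65.0%, 60.8% and 63.0% of its paralog Runx1, a factor of blood cell formation, in non-radiated libraries and at 50.5%, 46.2% and 43.8% in radiated libraries. The groups did not overlap, and the ratio was 0.743 of its non-radiated value (two-sided exact permutation p = 0.100, the smallest that 20 labelings allow). Against Col1a1, the main collagen of bone, Runx2 was at 1.27%, 1.52% and 1.03% in the non-radiated group and at 1.36%, 1.50% and 1.28% in the radiated group, with overlap (log2 difference 0.13, exact permutation p = 0.600). The ratio of Sp7 to Runx2 was 95.6%, 74.9% and 106% without radiation and 96.1%, 81.5% and 93.1% with it, also with overlap (log2 difference -0.02, exact permutation p = 0.900). Sp7 to Col1a1 was 1.22%, 1.14% and 1.09% against 1.30%, 1.22% and 1.19% (log2 difference 0.11, exact permutation p = 0.200). Within the numbered pairs, that ratio was higher in the radiated library each time, by 0.10, 0.10 and 0.13 on the log2 scale. The ratio of Runx2 to Runx1 was lower each time, by -0.36, -0.40 and -0.53. For both, exact sign flips of the pairs, added after the values were seen, gave p = 0.25, the smallest that 3 pairs allow. Over the 5 ratios, the Benjamini-Hochberg adjusted permutation p ran from 0.500 to 0.900, so none passed the correction. In whole bone, fewer cells of a type and less RNA per cell cannot be told apart.

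**Figure D3:**
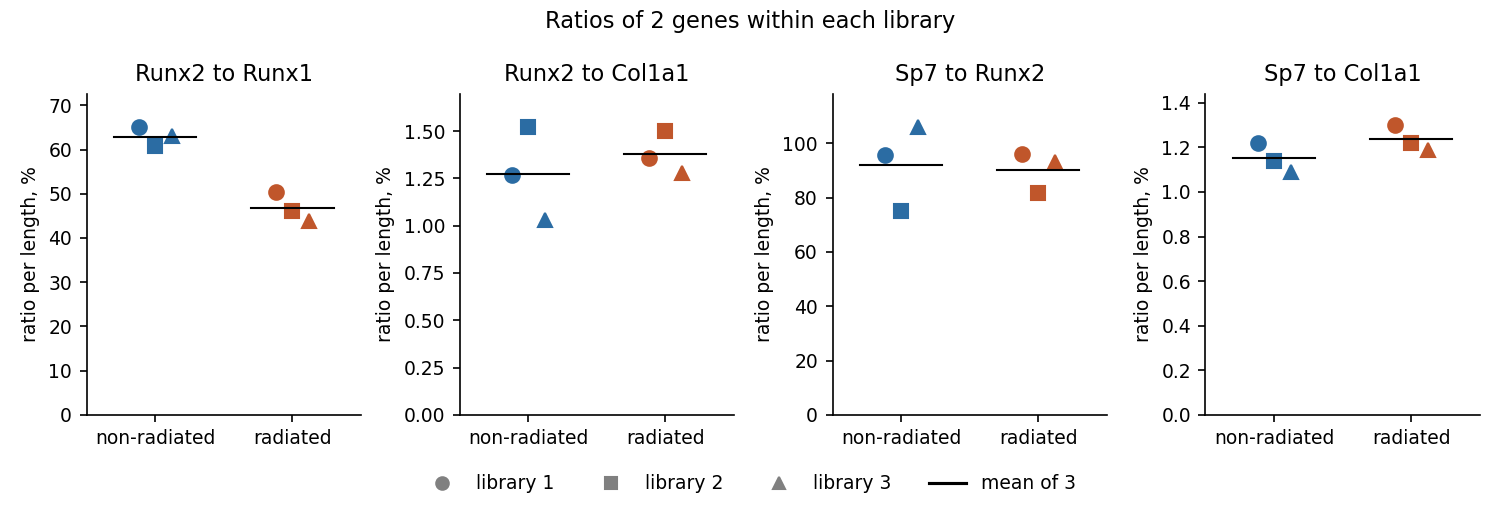
Ratio of 2 genes per exon length, in percent, within each of the 6 libraries (points, shape by library number) with the mean of 3 as a line, on axes from 0. Runx2 to Runx1 is lower in all radiated libraries (43.8% to 50.5% against 60.8% to 65.0%), and the groups overlap in the other 3 panels.

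Of 11 paralogs of the members, 7 were tested and none was called, while 1 reached an unadjusted p under 0.05, and their median log2 fold change was -0.04. For this list and those below, the shares over all tested genes were 7.80% called and 21.5% at an unadjusted p under 0.05. Runx1 and Runx3 were at -0.04 (95% interval -0.16 to 0.07, edgeR adjusted p 0.695) and 0.01 (95% interval -0.14 to 0.17, edgeR adjusted p 0.939). Neither interval reaches the fold estimated for Runx2. The paralogs with the smallest p were Sp3, a widely expressed zinc finger factor, at -0.19 (edgeR adjusted p 0.171) and Dlx1 at 1.11 (edgeR adjusted p 0.245). Dlx1 is a gene of low level here, at 0.110 to 0.605 CPM. Sp3 was at 0.01 when libraries were scaled by totals alone, and it became a call without non-radiated library 3 (-0.28, edgeR adjusted p 0.0186).

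Of 8 partners and coactivators of Runx2, 1 was called, Maf (12.5%, against 7.80% of all tested genes). An unadjusted p below 0.05 was met by 4 of the 8, against 21.5% of all tested genes. Maf, a leucine zipper factor that favours osteoblast over fat cell differentiation and is also expressed in macrophages, was at 52.2, 52.0 and 53.2 CPM in non-radiated and 71.7, 69.1 and 65.2 CPM in radiated libraries. All radiated values were higher (log2 fold change 0.39, SE 0.06, edgeR adjusted p 0.00326), so Maf rose where Runx2 fell. Scaling by totals alone ended the Maf call, at a larger value with a wider SE (0.58, SE 0.211, edgeR adjusted p 0.0913). Cbfb, the DNA-binding partner, was at 0.05 (95% interval -0.09 to 0.20, edgeR adjusted p 0.715).

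Of 10 genes that restrain Runx2, 9 were tested and none was called, with no member at an unadjusted p under 0.05 and a median of 0.03. The smallest p belonged to Hivep3, an adaptor that promotes Runx2 breakdown, at 0.21 (edgeR adjusted p 0.283). Of 6 genes that respond to BMP signalling none was called, with 1 at an unadjusted p under 0.05. Id3 was at 0.32 (edgeR adjusted p 0.165) and Smad7 at 0.23 (edgeR adjusted p 0.260), and the median of the 6 was 0.13.

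Among 12 other transcription factors of the osteoblast lineage, 11 were tested and 2 were called (18.2%, against 7.80% of all tested genes), both higher in radiated femur. An unadjusted p below 0.05 was met by 6 of the 11, against 21.5% of all tested genes, and the median was -0.09. Lef1, a nuclear factor of Wnt signalling that is also expressed in early B cells, was at 21.6, 16.3 and 19.1 CPM in non-radiated and 34.5, 35.9 and 43.5 CPM in radiated libraries. It rose to 1.99 times its non-radiated level (SE 0.12 on the log2 scale, edgeR adjusted p 0.00133). Prrx1, a homeodomain factor of skeletal progenitors and fibroblasts, was at 20.9, 17.6 and 19.8 against 31.1, 29.2 and 27.2 CPM, so its log2 value rose by 0.58 with an SE of 0.09 (edgeR adjusted p 0.00396). Both were called in all 15 settings. Spib, a factor of B cells and plasmacytoid dendritic cells, rose beside Lef1 by 0.66 (edgeR adjusted p 0.00159), and its part in the Lef1 value was not tested.

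**Figure D4:**
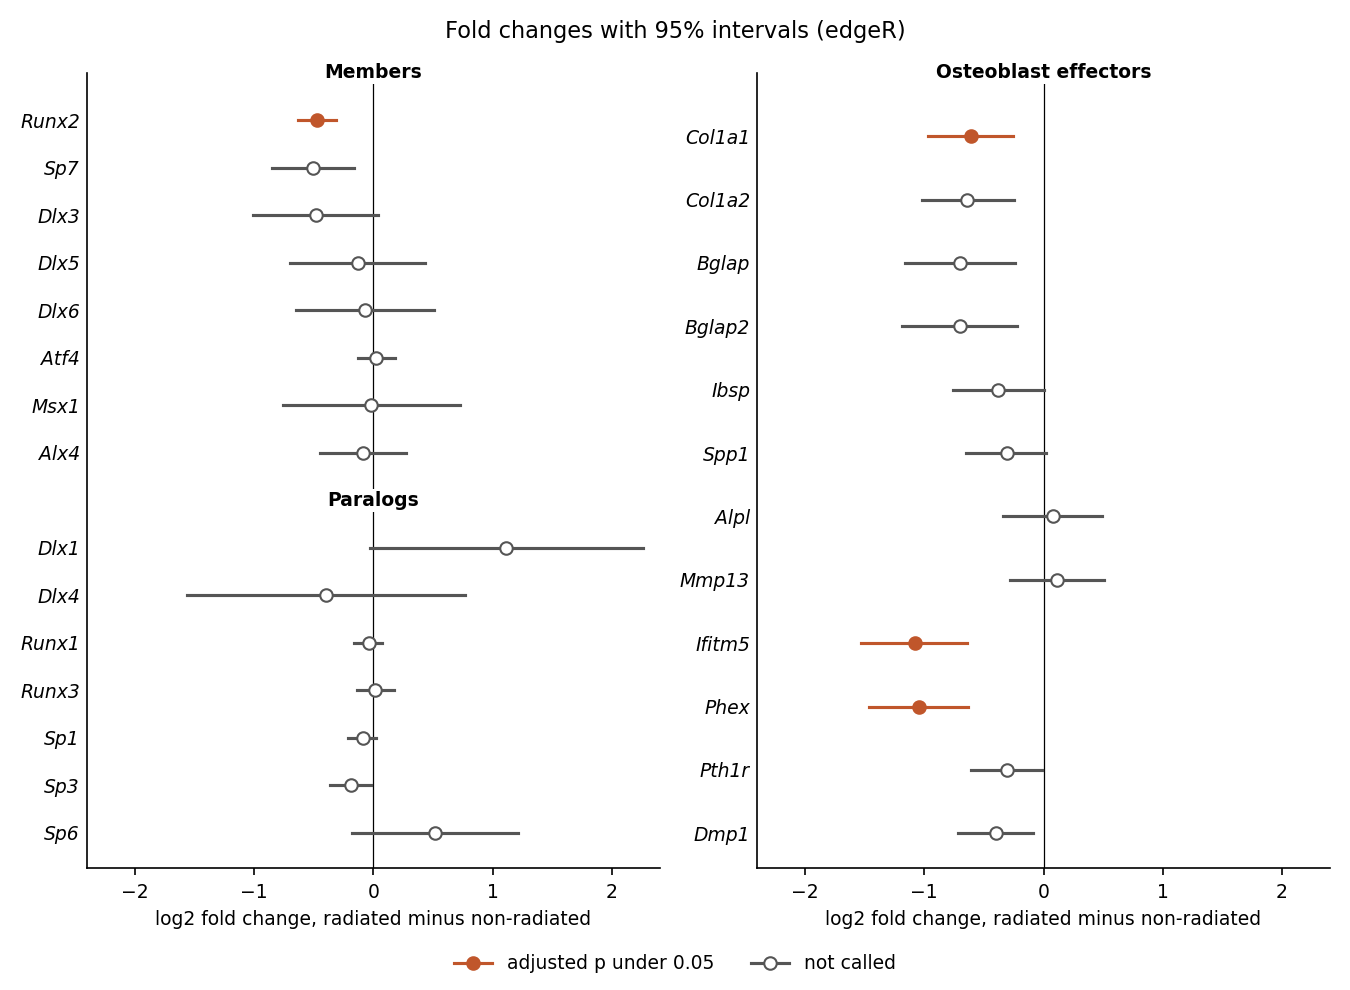
Log2 fold change of each tested gene (radiated minus non-radiated, dots) with its 95% interval from the edgeR fit, for the members, their paralogs and osteoblast effector genes, with called genes filled in orange. Runx2, Col1a1, Ifitm5 and Phex are called lower and no gene shown is called higher.

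The 12 osteoblast effector genes encode bone matrix, mineralization and signalling proteins, several of them known targets of Runx2 or Sp7. Of these, 10 had values below 0, 9 had an unadjusted p below 0.05 and 3 were called, all lower, with a median log2 fold change of -0.51. With the replicate block 6 were called, all lower, while the block called 8.90% of all tested genes in either direction. Phex, a peptidase that governs phosphate handling, fell from 80.8, 49.7 and 77.4 CPM in non-radiated to 40.3, 28.0 and 32.9 CPM in radiated libraries (log2 fold change -1.04, SE 0.18, edgeR adjusted p 0.00909). Ifitm5, a membrane protein of mineralizing osteoblasts, fell from 6.47, 4.99 and 7.13 to 3.72, 2.36 and 2.76 CPM (log2 fold change -1.08 with an SE of 0.20, edgeR adjusted p 0.0108). Both genes fell by more than 2 times the value of Runx2 on the log2 scale. Their windows did not hold the RUNX letters, which 14.0% of all windows hold. The part of Runx2 in these values was not tested.

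Col1a1 was at 5435, 4079 and 6185 against 3767, 2984 and 3507 CPM (log2 fold change -0.61, edgeR adjusted p 0.0470). Its call was lost in 7 of 14 alternatives: scaling by totals alone, the muscle covariate, and leaving out any 1 library other than non-radiated library 2 (-0.69 to -0.48 over those 5, edgeR adjusted p 0.0786 to 0.150). Of the 4 effector genes with the RUNX site, Bglap, osteocalcin, was at -0.70 (edgeR adjusted p 0.0729), Dmp1 at -0.40 (0.124), Spp1 at -0.31 (0.264) and Mmp13 at 0.11 (0.774), and none of the 4 was called. Bglap became a call without radiated library 1 (-0.94, edgeR adjusted p 0.0258) and with no filter on low counts (-0.70, edgeR adjusted p 0.00441). Ibsp was at -0.38 (edgeR adjusted p 0.226, and 0.0315 with the block). Alpl, the phosphatase of early osteoblasts, was at 48.8, 30.3 and 47.9 against 54.3, 37.5 and 42.6 CPM (log2 fold change 0.08, 95% interval -0.34 to 0.49), and turned negative when non-radiated library 2 (-0.13) or radiated library 1 (-0.08) was left out. With the muscle sum as a covariate none of the 12 was called, and Phex and Ifitm5 were at -0.85 and -0.92 (edgeR adjusted p 0.0553 and 0.0733).

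**Figure D5:**
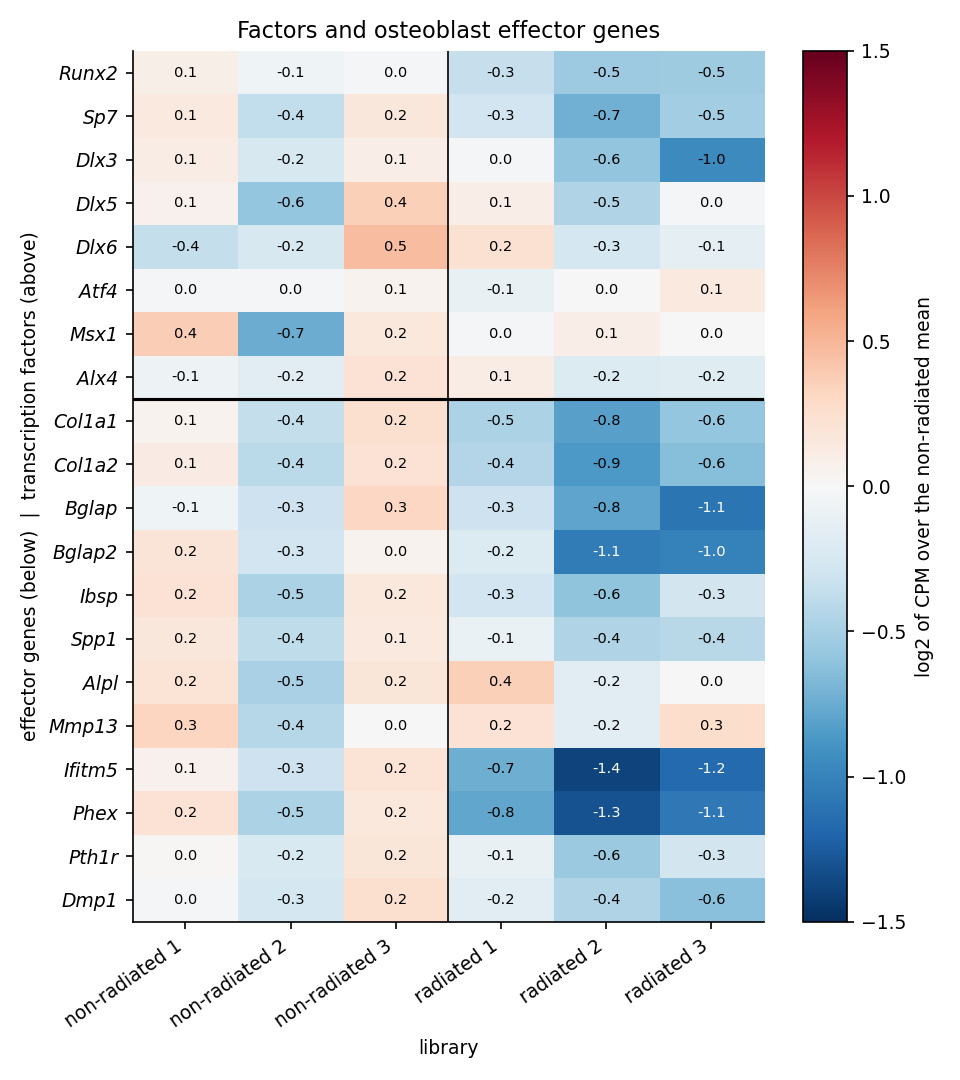
Log2 of each library's CPM over the non-radiated mean of that gene (colour and printed value), for 8 transcription factors and 12 osteoblast effector genes in rows and 6 libraries in columns. Non-radiated library 2 is the lowest of the non-radiated libraries for each effector gene and for each factor shown except Dlx6, and Runx2 is lower still in the 3 radiated libraries.

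Atf4 acts through genes of amino acid supply and the stress response, and 20 of these were tested. No call was made, the unadjusted p was under 0.05 for 2, and the median was 0.07. Atf5, a related factor, was at 6.80, 6.11 and 7.03 CPM in non-radiated and 8.48, 8.58 and 8.47 CPM in radiated libraries, without overlap but not called (log2 fold change 0.35, edgeR adjusted p 0.0749). Atf3 was at 0.50 (edgeR adjusted p 0.176), and became a call without radiated library 3 (0.68, edgeR adjusted p 0.0455). Of 7 upstream genes, the kinases and phosphatase subunits that set Atf4 translation, no call was made and the unadjusted p of 1 was under 0.05. The smallest p were those of Eif2ak4, at 0.17 (edgeR adjusted p 0.197), and Eif2ak3, at 0.11 (edgeR adjusted p 0.244).

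Over 6 libraries, the genes of at least 5 CPM whose log2 CPM followed Runx2 most closely among 11904 included Tex15 and Gucy1a3, with Pearson's r of 0.9992 and 0.9939. Those closest to Sp7 were Smpd3, Col1a2 and Bambi, at 0.9962, 0.9936 and 0.9915. Among the members, Runx2 had r = 0.869 with Sp7 and 0.825 with Dlx3, against 0.271 with Dlx5 and -0.324 with Atf4, and Sp7 had 0.710 with Dlx5. These values describe 6 libraries that share 2 groups and their scaling, and so many genes give high values among 6 points.

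Markers of other cells that express these factors moved in part with the groups. Growth plate chondrocytes use Runx2, Dlx5 and Dlx6 as they enlarge, and 12 chondrocyte genes summed to 713, 307 and 625 CPM in non-radiated and 343, 231 and 383 CPM in radiated libraries. Of the 12, 1 was called, Col11a2 at -1.15 (edgeR adjusted p 0.00600), and 3 with the block. The 1 call is 8.33%, against 7.80% of all tested genes. The median was -0.36, with 11 below 0 and Matn1 at 0.78 (edgeR adjusted p 0.268). Acan, Col9a2 and Col9a3 were at -0.15, -0.19 and -0.15, and none of them was called. Col10a1, which marks the enlarged cells, was at 139, 13.3 and 98.9 against 16.9, 13.0 and 21.3 CPM. Its log2 fold change was -2.30 (edgeR adjusted p 0.0587), and it was called lower with the block (-1.88, edgeR adjusted p 0.0364). Ihh, at -1.07 (edgeR adjusted p 0.0873), was also called lower with the block (-0.99, edgeR adjusted p 0.0266). Plasmacytoid dendritic cells also express Runx2. Of 6 genes of those cells 4 were below 0. Siglech, at 23.2, 25.4 and 22.4 against 11.8, 13.5 and 13.5 CPM (log2 fold change -0.87, edgeR adjusted p 0.000477), was called lower. Ccr9, at -0.91 (edgeR adjusted p 0.00684), was also called lower. Spib, also a factor of B cells, was called higher, at 105, 98.9 and 115 against 165, 154 and 187 CPM. The 6 genes summed to 138 to 152 and 183 to 208 CPM, and Spib makes up most of each sum. The parts of chondrocytes and of plasmacytoid dendritic cells in the Runx2 value were not tested.

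The 14 muscle genes had a median of 2.32, with none called and 12 called with the block. With the muscle covariate Runx2 was at -0.46 and called (edgeR adjusted p 0.0195). Of 8 adipocyte genes all were called higher (median 3.09, sums of 189 to 212 and 392 to 511 CPM). The 4 osteocyte genes had a median of -0.30, with 3 below 0 and 3 at an unadjusted p below 0.05. Of these, Fgf23 was called higher at 2.30 (edgeR adjusted p 0.0106), and Dkk1, at -0.67 (edgeR adjusted p 0.126), was called lower with the block (-0.66, edgeR adjusted p 0.0386). The 4 endothelial genes had a median of 0.08 with none called, 2 at an unadjusted p under 0.05 and 1 called with the block. Their parts in the values of the 9 factors were not tested.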

How the data were processed

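Gene counts from 3 radiated and 3 non-radiated femur libraries were analysed. Raw gene counts, not normalized, are deposited by the authors, per the file headers. The deposited RPKM values, scaled by gene length and library per the file headers, were not used. The gene length in bases, another column deposited by the authors, gave CPM per kilobase. The submitters' processing notes name bcl2fastq, STAR 2.5.2b, Subread, featureCounts and mm10, with no role or order, and libraries used a stranded mRNA kit, per the labels' protocols. Annotation and strand setting are not given in the sources used here. Of 43346 gene IDs, 98.0% were found in GENCODE M21, from which strands and shared exons were read.

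Tests on the counts used edgeR 4.0.16 under R 4.3.3 (filterByExpr with minimum count 10 and minimum total 15, TMM, glmQLFit and glmQLFTest on group, Benjamini-Hochberg over 18757 genes, threshold 0.05). An SE is the log2 fold change over the square root of F. Fold changes are relative to the bulk of genes. The biological coefficient of variation was 12.9%. Replicates of a group differed beyond sampling noise (chi-square over its degrees of freedom 17.9 to 604). This used unscaled counts with AY036118 included, so its upper values are not a spread of the genes described here. Deviations from group means correlated at 0.166, 0.277 and 0.187 for equal numbers and -0.170 to -0.00824 for unequal ones, so the numbers were taken to pair libraries. Each mean comes from the same 3 libraries, so positive values for equal numbers push the others below them. The values for unequal numbers are therefore not separate evidence of pairing. The labels name no mouse. Alternatives were DESeq2 1.42.0 size factors and Wald test, library totals, other filters, limma 3.58.1 voom, the replicate block, a muscle covariate and leaving out each library. On counts simulated for 18582 genes of this comparison, 68.4% of 2-fold and 96.8% of 4-fold changes were recovered. Smaller changes, such as the fall of Runx2 to 0.721, were not simulated, so these shares do not apply to them.

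Members and lists were chosen with earlier results of these data known. Named genes were all members, up to 4 called genes of smallest p in each of 8 pathway lists (otherwise 2), 4 osteoblast markers, genes that overlap or adjoin a member, and the 3 genes most like Runx2 and Sp7. A few genes so chosen are left out here. Others named (Runx1, Runx3, Cbfb, Mmp13, Spp1, Dmp1 and cell markers) were chosen after their values were seen.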

Additional observations from a re-analysis of the deposited data

How the results depend on the processing

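The count of called genes ran from 764 to 1376 when 1 library was left out (764 without radiated library 1, 819 without non-radiated library 2, 905 without non-radiated library 1) against 1463 in all 6. The count of called members was 0 with library totals alone, and 2 with no filter on low counts, with DESeq2's Wald test and with the replicate block, and it was 1 to 2 when 1 library was left out (2 without non-radiated library 2). In the 8 pathway lists, 6 of 80 tested genes were called (7.50%, against 7.80% of all tested genes). The count was 12 of 85 with no filter, 10 of 80 with DESeq2's Wald test and 5 to 8 when 1 library was left out. It was 10 of 80 with the replicate block, which called 8.90% of all tested genes. Runx2 was at -0.29 and not called with library totals alone. Sp7 was called with no filter (-0.50), DESeq2's Wald test (-0.51) and the replicate block (-0.49), and ran from -0.67 to -0.41 when 1 library was left out. The block changed the call of no other member.

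Sign changes were found in members that no setting called. With library totals alone Dlx5 was at 0.02, Dlx6 at 0.11, Msx1 at 0.15 and Alx4 at 0.08, and with the muscle covariate Dlx5 was at 0.15, Dlx6 at 0.05 and Msx1 at 0.03. Msx1 was at 0.02 with limma-voom and with the replicate block. When 1 library was left out, Dlx5 ran from -0.35 to 0.08, Dlx6 from -0.23 to 0.25, Atf4 from -0.05 to 0.08, Msx1 from -0.25 to 0.19, Alx4 from -0.20 to 0.03 and Alpl from -0.13 to 0.19. Sp3 was at 0.01 with library totals alone. With the muscle covariate the paralog Sp6 and the Atf4 target Vldlr became calls, 1 in each list. Causes of these shifts were not tested. Depth limits Msx1 and Msx2, and 3 libraries per group limit all members.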
